A study of Homo sapiens with 12 samples.

Results

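AP-1 is a family of dimeric transcription factors that carry a basic region and a leucine zipper (bZIP). The accessibility of 10 genes that encode AP-1 or closely related bZIP proteins was examined in HCT116, an established human colorectal carcinoma line. The genes were JUN, JUNB, JUND, FOS, FOSB, FOSL1, FOSL2, ATF3, BATF and MAFK. Their regions were those of the count table that overlapped the gene body, or lay within 20 kb of it, in GENCODE 44 on hg38. This gave 34 of the 30170 regions, next to 9 of the 10 genes, and BATF had none. A region within 1 kb of an annotated start of the gene was counted as a gene start (14 regions) and any other as distal (20 regions). Counts were then pooled per gene, which gave 9 gene start features and 7 distal features, JUN and JUND having no distal region. Of the 20 distal regions, 11 lay at a start site of another gene.

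ATAC-seq reads mark DNA that a transposase can reach, so they report open chromatin and not transcription. There were 4 lines with 3 libraries each. All of them were stable HCT116 derivatives. The control line carried an empty vector (EV), and the others carried EHF, carried CDX1, or carried both factors (EHF+CDX1). EHF is an ETS-family transcription factor, and it was introduced on a plasmid with selection of geneticin-resistant clones. CDX1 is a caudal homeobox factor of the intestine, and it was introduced by a retrovirus, after which GFP-positive cells were sorted. For the combined line, the sorted CDX1 cells were in turn transfected with the EHF plasmid, and clones resistant to geneticin were kept. Since the labels do not say whether the 3 libraries of a line came from separate cultures, p-values measure the spread between these libraries, which may be technical.

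JUN, JUNB and JUND pair with each other or with a FOS protein (FOS, FOSB, FOSL1 or FOSL2), and the dimers bind a short palindrome, the TPA response element. ATF3, BATF and MAFK share the bZIP fold and form dimers with JUN proteins or with other partners. Many of these genes respond to growth factors and stress through MAP kinases, and in colorectal epithelium AP-1 is best known downstream of RAS and WNT signalling.

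Library totals ran from 567366 to 2443334 counts, and the median region held 2 to 22 counts, so most members were measured with few reads. Regions over EHF exons held 543188 to 1536042 counts in EHF libraries and 91907 to 759842 in EHF+CDX1 libraries, against 33 to 100 in EV. Regions over CDX1 exons held 524981 to 1916479 counts in CDX1 libraries and 77147 to 545352 in EHF+CDX1 libraries, against 18 to 96 in EV. Regions matching mitochondrial DNA took 65.1% to 73.9% of counts in EV libraries and 14.5% to 37.2% elsewhere. EHF+CDX1 replicate 2 stood apart, with 9.99% of its counts over EHF and CDX1 exons, against 60.0% and 61.1% in the other EHF+CDX1 libraries, and the largest effective library size, 4409810. Gene start regions were present for 4 of 5 epithelial markers (EPCAM, KRT8, KRT18 and CLDN7, but not CDH1) and for 3 of 4 colon markers (CDX2, VIL1 and CDH17, but not KRT20). Of 5 markers of other cell types, PTPRC, CD3E, PECAM1 and PDGFRB had no such region, while COL1A1 had 34 to 56 counts per line. Such a region need not be open in every line, because regions were merged over all libraries. In EV, KRT18, VIL1 and CDH17 held 6, 3 and 2 raw counts, against 41, 37 and 46 in EHF+CDX1. EPCAM, KRT8, CLDN7 and CDX2 held 38, 36, 16 and 13 in EV, beside 34 for COL1A1.

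The upstream sequences of 5 members are given as the promoters of members described below. At JUN, JUNB, FOS and FOSL2 a gene start region overlaps the printed stretch, while the 2 gene start regions of JUND lie on either side of it. Each holds the 250 bases before the RefSeq transcript start (GRCh38.p14), written 5′ to 3′ on the strand of the gene. Capitals mark matches, on either strand, to TGANTCA (a relaxed form of the AP-1 element, with any middle base) and TGACGTCA (the cyclic AMP response element, CRE). They also mark TGACATCA (the element known from the proximal JUN promoter), GGAAGT (an ETS core) and TTTATG or TTTATT (a CDX core). The stretches are JUN (chr1:58784048-58784297, minus strand), JUNB (chr19:12791236-12791485, plus), JUND (chr19:18281623-18281872, minus), FOS (chr14:75278578-75278827, plus) and FOSL2 (chr2:28392608-28392857, plus).
JUN: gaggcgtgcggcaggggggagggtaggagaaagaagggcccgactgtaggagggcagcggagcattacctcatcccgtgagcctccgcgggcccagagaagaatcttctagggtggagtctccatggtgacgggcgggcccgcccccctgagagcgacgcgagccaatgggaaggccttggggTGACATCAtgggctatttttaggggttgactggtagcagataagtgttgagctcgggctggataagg
JUNB: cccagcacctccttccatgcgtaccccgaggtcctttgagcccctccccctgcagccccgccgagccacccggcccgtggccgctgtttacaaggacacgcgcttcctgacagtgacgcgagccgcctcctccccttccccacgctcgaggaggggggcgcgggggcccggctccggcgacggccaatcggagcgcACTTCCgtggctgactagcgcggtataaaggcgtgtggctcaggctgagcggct
JUND: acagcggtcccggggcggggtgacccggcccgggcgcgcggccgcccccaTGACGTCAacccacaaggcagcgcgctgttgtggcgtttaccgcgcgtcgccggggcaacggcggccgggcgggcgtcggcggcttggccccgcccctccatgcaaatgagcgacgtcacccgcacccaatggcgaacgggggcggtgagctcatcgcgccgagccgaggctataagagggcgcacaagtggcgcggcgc
FOS: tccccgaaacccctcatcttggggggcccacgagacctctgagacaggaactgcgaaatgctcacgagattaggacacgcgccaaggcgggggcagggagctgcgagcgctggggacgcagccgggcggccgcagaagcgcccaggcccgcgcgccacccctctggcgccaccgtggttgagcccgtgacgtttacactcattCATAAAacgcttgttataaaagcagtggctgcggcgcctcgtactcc
FOSL2: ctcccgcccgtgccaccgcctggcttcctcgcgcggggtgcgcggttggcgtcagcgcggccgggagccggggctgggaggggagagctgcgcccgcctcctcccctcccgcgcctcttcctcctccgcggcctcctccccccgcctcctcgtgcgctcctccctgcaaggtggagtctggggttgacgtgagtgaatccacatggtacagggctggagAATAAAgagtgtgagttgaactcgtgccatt

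The match in JUN is TGACATCA and begins 67 bases before the transcript start. The match in JUND is TGACGTCA, which begins 200 bases before it and lies in neither of its gene start regions. JUNB holds the ETS core, read on the opposite strand, beginning 54 bases before the start. FOS and FOSL2 each hold a CDX core on the opposite strand, beginning 47 and 31 bases before the start. None of these 5 stretches holds TGANTCA. Of the 9 promoters that RefSeq lists for members in the table used here (2 of them for ATF3; FOSL1 and MAFK were not matched), TGANTCA occurred in 1, that of FOSL2, at a place after the transcript start. Over all 35116 promoters of the same length (300 bases), shares were 7.71% for TGANTCA, 1.85% for TGACGTCA, 2.61% for TGACATCA, 22.8% for the ETS core and 24.3% for the CDX core. A match of letters is a description and not a bound site.

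In 150 bp centred on each region, TGANTCA was found in 5 of the 34 member regions, against 17.1% of all regions. TGACATCA was found in 2 (0.991% of all), TGACGTCA in 1 (1.09%), the ETS core in 5 (13.9%) and the CDX core in 3 (14.1%). Of the 5 regions with TGANTCA, 4 lay outside exons and are given here on the plus strand of hg38, because they match this relaxed form. They are a distal region in the body of ERCC1, upstream of FOSB (chr19:45455831-45455984), 2 regions in introns of ATF3 (chr1:212567186-212567336 and chr1:212596230-212596380), and a gene start region inside MAFK (chr7:1537277-1537427).
FOSB distal: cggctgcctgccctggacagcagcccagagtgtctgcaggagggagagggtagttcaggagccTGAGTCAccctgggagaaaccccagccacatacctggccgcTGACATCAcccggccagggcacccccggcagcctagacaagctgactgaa
ATF3 distal, first: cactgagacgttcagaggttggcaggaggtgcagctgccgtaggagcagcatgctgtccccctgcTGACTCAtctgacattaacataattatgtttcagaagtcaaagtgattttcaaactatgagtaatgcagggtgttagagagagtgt
ATF3 distal, second: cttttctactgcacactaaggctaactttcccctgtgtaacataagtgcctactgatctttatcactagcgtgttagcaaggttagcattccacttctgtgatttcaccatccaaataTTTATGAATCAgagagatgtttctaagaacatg
MAFK start: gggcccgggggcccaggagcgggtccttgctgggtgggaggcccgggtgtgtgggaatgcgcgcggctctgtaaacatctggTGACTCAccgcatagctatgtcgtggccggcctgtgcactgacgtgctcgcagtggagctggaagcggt

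The FOSB distal region holds TGAGTCA and TGACATCA apart from each other. In the second ATF3 region TGAATCA shares its first bases with a CDX core, TTTATG. The element at MAFK and in the first ATF3 region is TGACTCA. The fifth region with the element was the FOSL2 gene start at chr2:28392729-28392912.

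Each line was compared with EV, and EHF+CDX1 with each line that carried 1 factor. The sixth comparison, called the interaction, is the log2 change of EHF+CDX1 against EV minus the log2 changes of EHF and of CDX1 against EV. Values are given as CPM, that is counts over the TMM-scaled library size brought to a common total. Tests are edgeR's quasi-likelihood F-test with Benjamini-Hochberg adjustment over all 20111 pooled features or all 30154 regions, and a feature is called when the adjusted p is under 0.05. All 16 member features and all 34 member regions passed the filter on low counts.

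Between EHF+CDX1 and EV, 1 of the 16 member features was called, the JUNB gene start, which was higher in EHF+CDX1. Of all pooled features, 1.68% were called in this comparison. The libraries of the 2 lines did not overlap at 6 member features that were higher in EHF+CDX1 (14.3% of all features) and at 1 that was lower, the JUN start (5.87% of all features). Such shares were not computed for the orders between other lines that are given below. Of the 16 members, 14 had a positive log2 fold change, with a median of 0.46 and a range of -0.50 to 2.46, beside 60.3% positive and a median of 0.17 over all features. In bulk libraries, a larger share of cells with an open region and wider opening in every cell cannot be told apart.

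**Figure D1:**
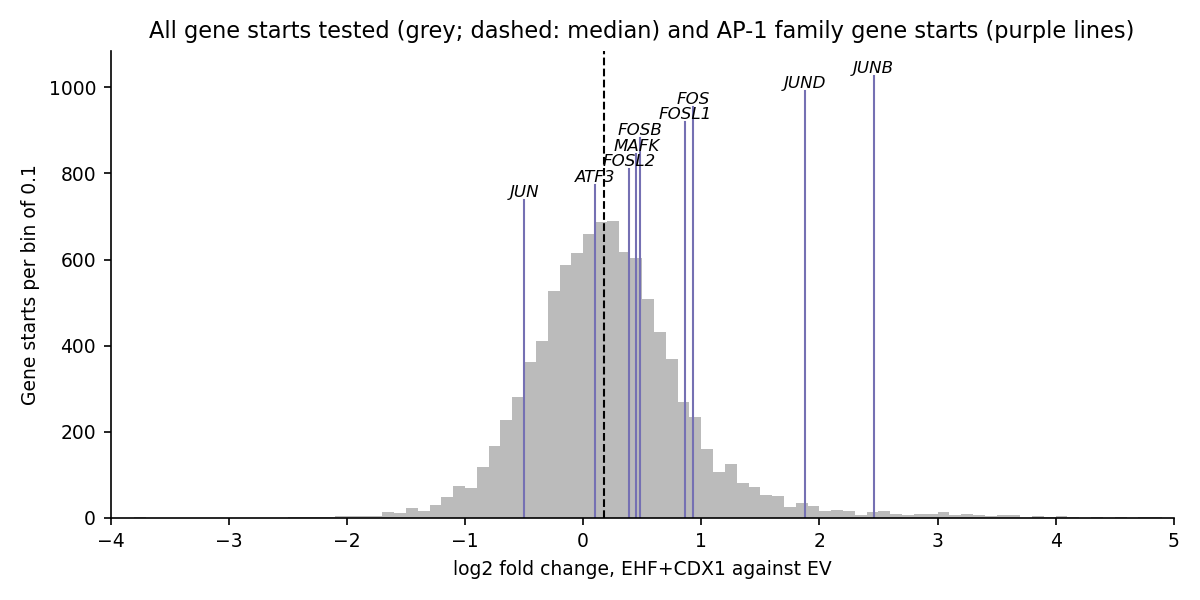
The histogram gives the log2 fold change of EHF+CDX1 against EV for all 9627 gene starts tested (grey, number per bin of 0.1, dashed line at their median of 0.18). Purple lines mark the 9 AP-1 family gene starts, with JUN lowest at -0.50, JUND at 1.88 and JUNB highest at 2.46.

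JUNB encodes a JUN protein that often restrains proliferation. Its gene start region (chr19:12791369-12791544) spans the transcript start and the first bases of the only exon, inside the annotated body of HOOK2. It held 4, 1 and 0 counts in the EV libraries, 10, 8 and 11 in those with EHF, 5, 6 and 9 in those with CDX1 and 12, 44 and 14 in those with EHF+CDX1. These counts are 4.36, 0.690 and 0.0 CPM in the EV libraries, 9.16, 3.26 and 10.1 in those with EHF, 4.75, 2.90 and 10.7 in those with CDX1 and 7.14, 9.98 and 11.7 in those with EHF+CDX1. All 3 EHF+CDX1 libraries lay above all 3 EV libraries, while EHF and CDX1 libraries overlapped both.

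The JUNB start rose 5.51-fold in EHF+CDX1 against EV, or by 2.46 ± 0.68 on the log2 scale (± SE here and below; adjusted p = 0.045, edgeR). Tested as a single region among 30154 it gave 2.46 ± 0.67 (adjusted p = 0.024), beside 2.59% of all regions called, and it was the only 1 of 34 member regions called. The EV libraries together held 5 counts at this place, so that the ratio of pooled CPM, 5.82, had an exact 95% counting interval of 2.38 to 18.5 (conditional binomial, counting error only). In EHF against EV the log2 fold change was 1.99 ± 0.73 (adjusted p = 0.98) and in CDX1 against EV 1.66 ± 0.77 (adjusted p = 1), neither of which passed. Without EV replicate 1 these were 3.67 and 3.34, and without EV replicate 2 they were 1.43 and 1.10. EHF+CDX1 differed from EHF by 0.47 ± 0.49 and from CDX1 by 0.80 ± 0.52, less than 2 standard errors in both. The ETS core printed above lies within this region.

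The JUNB call was near the threshold. Without EV replicate 2 the adjusted p was 0.31, without EV replicate 3 0.16, without EHF+CDX1 replicate 2 0.18 and without its replicate 3 0.075, with log2 fold changes of 1.91 to 2.41. Without EV replicate 1, the EV library with 4 of the 5 counts, it was 4.14. Without CDX1 replicate 1 or 3, which are not in the comparison but share its estimate of the spread, it was 0.054 and 0.051 at an unchanged log2 fold change. It was also not called with library totals alone (2.45, adjusted p = 0.89), by DESeq2 (2.57, adjusted p = 0.15) or by limma-voom on quantile-normalised values (2.33, adjusted p = 0.16). The lower share of mitochondrial counts outside EV moved with this difference. So did the share of the remaining counts at start sites, 44.7% to 47.2% in EV libraries and 48.5% to 54.8% in EHF+CDX1 libraries. With mitochondrial and introduced-gene regions left out, the value was 2.47 (adjusted p = 0.041, edgeR), but this does not remove a difference in library quality. Library quality and line cannot be told apart here, and its part was not tested.

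**Figure D2:**
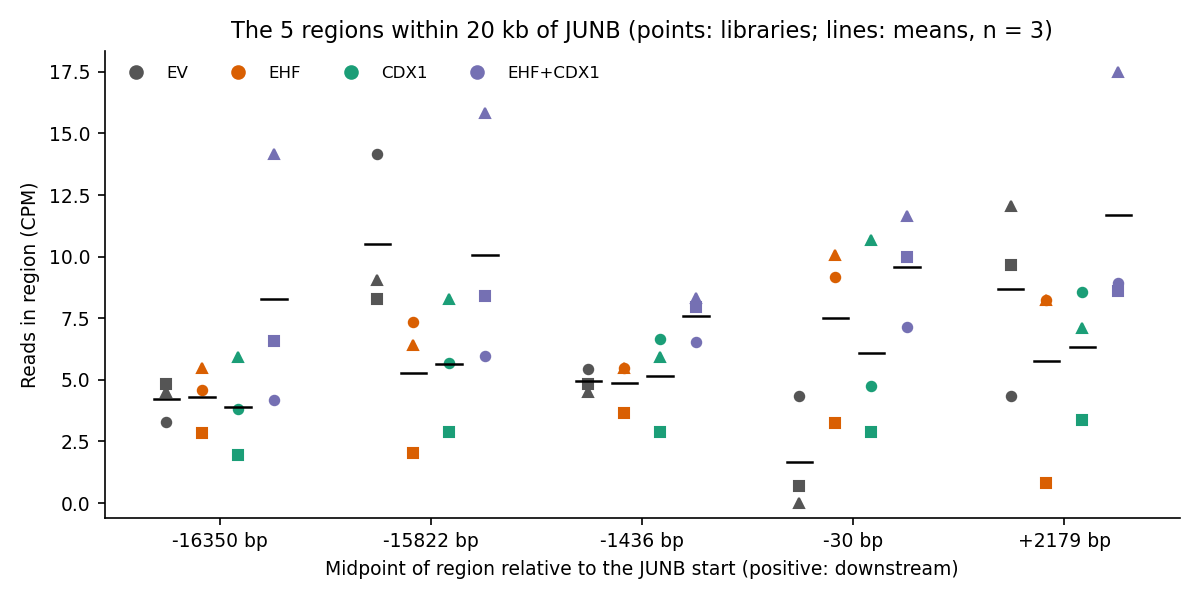
Reads (CPM) in the 5 regions within 20 kb of JUNB, placed by the distance of their midpoint from the gene start, with 3 libraries (points) and the mean (line) of each line. In the gene start region, whose midpoint is 30 bp upstream of the annotated start, EV libraries lie between 0.0 and 4.36 CPM and EHF+CDX1 libraries between 7.14 and 11.7.

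None of the 4 distal regions of JUNB was called by edgeR in EHF+CDX1 against EV. They lay 16350, 15822 and 1436 bp upstream and 2179 bp downstream of the gene start, and the 2 farthest were at start sites of HOOK2. Pooled, they held 27.2, 27.6 and 30.1 CPM in the EV libraries, 25.7, 9.37 and 25.6 in those with EHF, 24.7, 11.1 and 27.2 in those with CDX1 and 25.6, 31.5 and 55.8 in those with EHF+CDX1. Replicate 2 was the lowest library of both EHF and CDX1, and replicate 3 the highest of EHF+CDX1. Against EV the log2 fold change was 0.38 ± 0.33 in EHF+CDX1 (adjusted p = 0.60, edgeR), with overlapping libraries. It was -0.57 ± 0.36 in EHF (adjusted p = 0.98) and -0.51 ± 0.37 in CDX1, also not called. EHF+CDX1 exceeded EHF by 0.95 ± 0.34 (adjusted p = 0.14) and CDX1 by 0.89 ± 0.34 (adjusted p = 0.18). The interaction, which includes the negative values of EHF and CDX1 against EV, was 1.46 ± 0.50 (adjusted p = 0.36).

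JUN encodes the most potent activator among the JUN proteins, and its promoter is a known target of AP-1 itself. Its gene start region (chr1:58783987-58784303) is shared with the start of the non-coding genes LINC01135 and ENSG00000290013. It held 28.3, 29.0 and 22.6 CPM in the EV libraries, 24.7, 26.9 and 25.6 in those with EHF, 26.6, 26.6 and 28.4 in those with CDX1 and 17.8, 19.3 and 19.98 in those with EHF+CDX1. The 3 EHF+CDX1 libraries were below all 9 others, and the share of all features with such an order was not computed. The difference was not called: log2 fold changes were -0.50 ± 0.29 against EV (adjusted p = 0.39), -0.44 ± 0.28 against EHF (adjusted p = 0.49) and -0.51 ± 0.29 against CDX1 (adjusted p = 0.39). Against EV the sign was negative in all 26 alternatives tried, from -0.65 to -0.42. These refit the same libraries, so they add no independent evidence. In EHF and CDX1 cells JUN was level with EV, at -0.06 ± 0.29 and 0.01 ± 0.30.

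JUND encodes the JUN protein that resting cells express most steadily. It had 2 gene start regions, 1 in its exon (chr19:18281239-18281389) and 1 at -454 bp (chr19:18281972-18282179) over the exon of MIR3188. Together they held 3.27, 1.38 and 6.02 CPM in the EV libraries, 9.16, 2.85 and 5.49 in those with EHF, 7.60, 2.42 and 15.4 in those with CDX1 and 11.3, 9.98 and 14.1 in those with EHF+CDX1. EHF+CDX1 libraries lay above every EV and EHF library. The log2 fold change of EHF+CDX1 against EV was 1.88 ± 0.59 (adjusted p = 0.088) and did not pass, although its unadjusted p was 0.0026. Against EHF it was 1.10 ± 0.50 (adjusted p = 0.28). The pooled counts were 80 in EHF+CDX1 and 9 in EV, a ratio of CPM of 3.69 with a counting interval of 1.85 to 8.37. The JUND start was not called by DESeq2 (1.93, adjusted p = 0.24) or by limma-voom on quantile-normalised values (1.64, adjusted p = 0.30). By edgeR it was 1.35 without EV replicate 2 (adjusted p = 0.44) and 2.01 without EHF+CDX1 replicate 2 (adjusted p = 0.18). It passed without EHF replicate 2, the second largest library by effective size, at the same log2 fold change (1.88, adjusted p = 0.043).

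**Figure D3:**
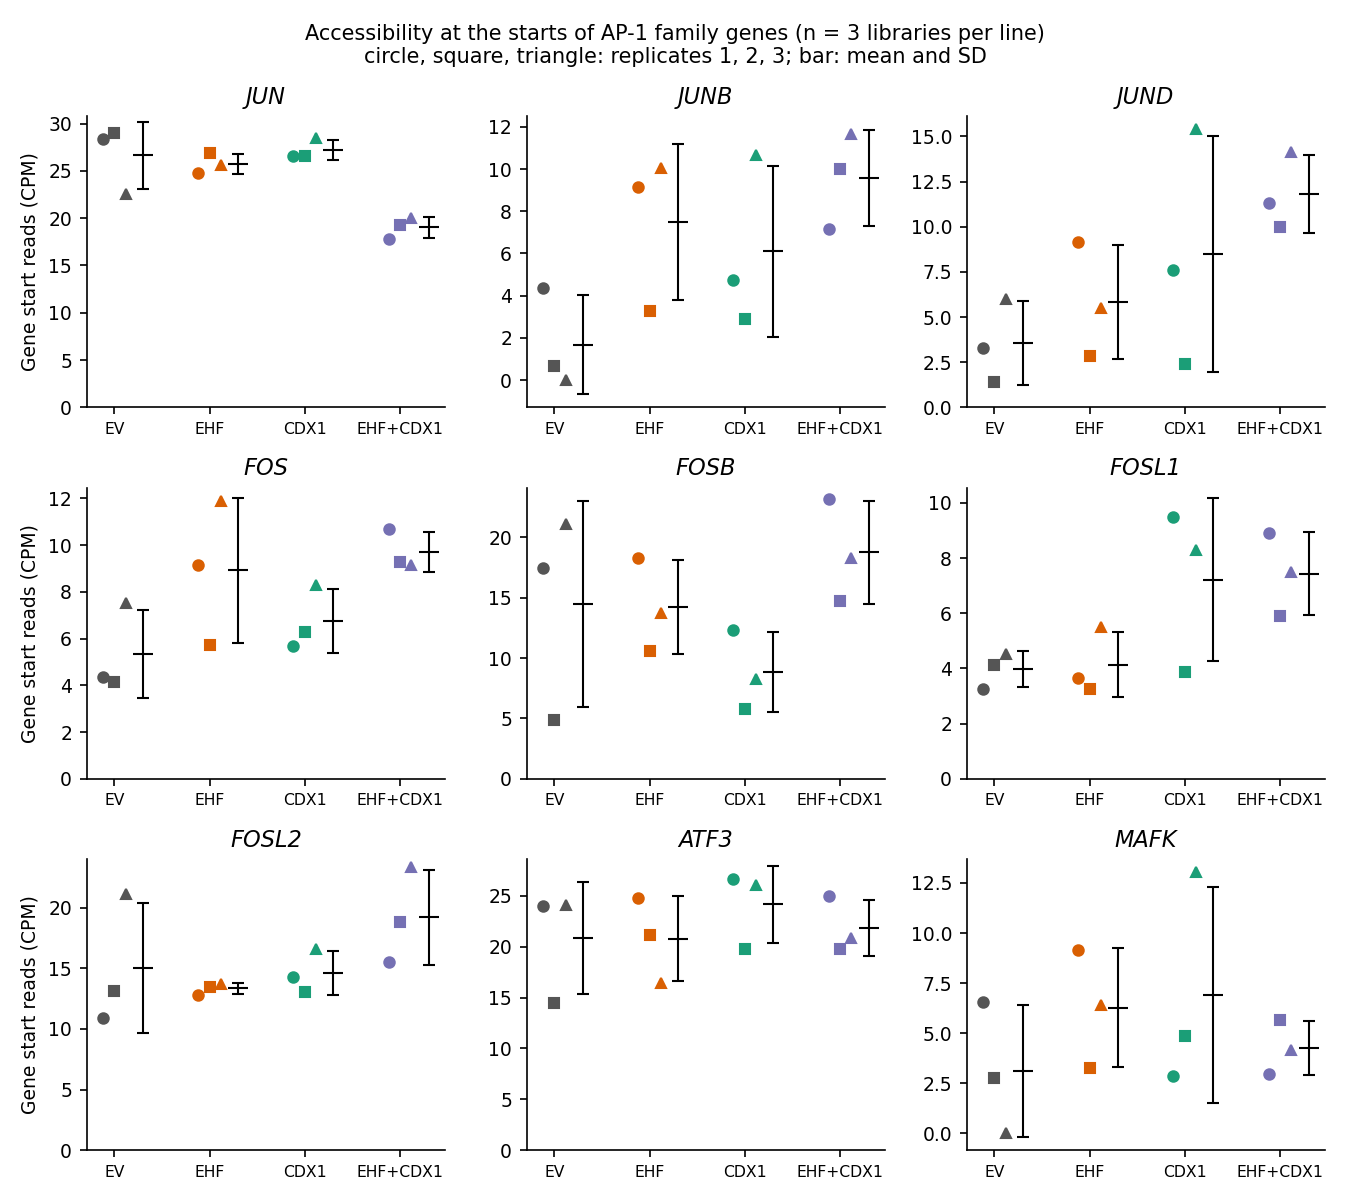
Gene start reads (CPM) of the 9 AP-1 family genes with a region, for each of 12 libraries by line, replicates 1 to 3 as circles, squares and triangles, with the mean and SD (n = 3). EHF+CDX1 libraries sit below the others at JUN (17.8 to 19.98 CPM) and above EV at JUNB, JUND, FOS and FOSL1.

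FOS encodes the immediate early partner of JUN. Its 2 gene start regions held 4.36, 4.14 and 7.53 CPM in the EV libraries, 9.16, 5.70 and 11.9 in those with EHF, 5.70, 6.28 and 8.29 in those with CDX1 and 10.7, 9.30 and 9.16 in those with EHF+CDX1. EHF+CDX1 libraries did not overlap those of EV or CDX1. The log2 fold change against EV was 0.93 ± 0.48 (adjusted p = 0.32). The region that covers the transcript start (chr14:75278710-75278899) had a mean of 3.42 ± 1.77 CPM in EV and 7.31 ± 1.11 in EHF+CDX1 (SD, n = 3). The region at -314 bp had 1.92 ± 1.67 and 2.41 ± 0.755. The 2 distal regions of FOS, at start sites of non-coding genes that include LINC01220, changed by 0.23 ± 0.37 against EV.

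FOSB encodes a further FOS protein of the immediate early response. Its 3 gene start regions held 17.4, 4.83 and 21.1 CPM in the EV libraries, 18.3, 10.6 and 13.7 in those with EHF, 12.4, 5.80 and 8.29 in those with CDX1 and 23.2, 14.7 and 18.3 in those with EHF+CDX1. The EV libraries spanned nearly the whole range, and only CDX1 and EHF+CDX1 were separate. EHF+CDX1 exceeded CDX1 by 1.12 ± 0.41 (adjusted p = 0.15) and EV by 0.48 ± 0.40 (adjusted p = 0.58). The distal regions, which lie in or near ERCC1 and RTN2, had a mean of 11.9 ± 1.96 CPM in EV, 17.3 ± 0.919 with EHF, 13.8 ± 2.17 with CDX1 and 14.0 ± 1.56 with both (SD, n = 3). EHF libraries were above those of EV there, at a log2 fold change of 0.53 ± 0.36 (adjusted p = 0.98).

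FOSL1 encodes FRA1, a FOS protein associated with invasive carcinoma cells. Its 1 gene start region (chr11:65900483-65900633) held 3, 6 and 3 counts in the EV libraries, 4, 8 and 6 in those with EHF, 10, 8 and 7 in those with CDX1 and 15, 26 and 9 in those with EHF+CDX1. In CPM, EHF+CDX1 libraries (8.92, 5.90 and 7.49) were above those of EV (3.27, 4.14 and 4.52) and EHF (3.67, 3.26 and 5.49), and overlapped those of CDX1 (9.50, 3.87 and 8.29). Log2 fold changes against EV were 0.01 ± 0.65 with EHF, 0.76 ± 0.58 with CDX1 and 0.86 ± 0.55 with both (adjusted p = 0.44 for the last). All 4 of its distal regions lay at starts of neighbours (FIBP, CCDC85B, and DRAP1 with C11orf68), and they gave 0.71 ± 0.36 in EHF+CDX1 against EV (adjusted p = 0.31). Of these, the region at CCDC85B (chr11:65890562-65890712) had 1.88 ± 1.75 CPM in EV and 7.09 ± 0.414 in EHF+CDX1, a log2 fold change of 1.65 ± 0.65 (adjusted p = 0.14).

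FOSL2 encodes FRA2, the closest relative of FRA1. Its gene start held 10.9, 13.1 and 21.1 CPM in the EV libraries, 12.8, 13.4 and 13.7 in those with EHF, 14.3, 13.0 and 16.6 in those with CDX1 and 15.5, 18.8 and 23.3 in those with EHF+CDX1, with 0.39 ± 0.35 for EHF+CDX1 against EV (adjusted p = 0.61). Its 2 distal regions lay 14285 and 10826 bp upstream, outside any annotated gene. Together they held 3, 6 and 0 counts in the EV libraries, 1, 1 and 4 in those with EHF, 2, 2 and 1 in those with CDX1 and 11, 43 and 5 in those with EHF+CDX1. In CPM, EHF+CDX1 libraries (6.54, 9.75 and 4.16) were higher than every other library, the lowest of them just above the highest EV library at 4.14.

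The FOSL2 distal regions had the largest log2 differences among members between EHF+CDX1 and the lines with 1 factor, and none was called. The difference was 2.33 ± 0.72 against EHF (adjusted p = 0.071) and 2.43 ± 0.75 against CDX1 (adjusted p = 0.079). Since each CDX1 library held 3 counts or fewer, the mean of EHF+CDX1 was at least 2.60-fold higher than the level of 3 counts per CDX1 library. The ratio of pooled CPM to CDX1 was 6.42, with a counting interval of 2.60 to 20.5. Against EV the difference was 1.32 ± 0.68 (adjusted p = 0.31), and the interaction was 3.43 ± 1.18 (adjusted p = 0.36). Against EHF it was called when EHF replicate 3 was left out (3.49, adjusted p = 0.041), or EHF+CDX1 replicate 3 (2.53, adjusted p = 0.049), but it was 1.64 without EHF replicate 2 (adjusted p = 0.33) and 1.91 without EHF+CDX1 replicate 2 (adjusted p = 0.49). Against CDX1 it was called without EHF replicate 2 (2.44, adjusted p = 0.038), and was 2.01 without EHF+CDX1 replicate 2 (adjusted p = 0.40).

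ATF3 encodes a stress-induced bZIP repressor. Its gene start region (chr1:212608328-212608734) lies inside the gene, at an internal promoter 43197 bp from the outermost start. It held 23.97, 14.5 and 24.1 CPM in the EV libraries, 24.7, 21.2 and 16.5 in those with EHF, 26.6, 19.8 and 26.1 in those with CDX1 and 25.0, 19.7 and 20.8 in those with EHF+CDX1. The 4 lines overlapped throughout, and EHF+CDX1 against EV gave 0.10 ± 0.32, with a 95% interval of -0.52 to 0.73. The 3 intronic distal regions, 2 of which hold TGANTCA as printed above, gave -0.07 ± 0.43 (interval -0.92 to 0.78). The signs of both ATF3 values changed under other scalings and fits.

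MAFK encodes a small MAF protein that lacks an activation domain. Its gene start region held 6, 4 and 0 counts in the EV libraries, 10, 8 and 7 in those with EHF, 3, 10 and 11 in those with CDX1 and 5, 25 and 5 in those with EHF+CDX1. In CPM the EV libraries were at 6.54, 2.76 and 0.0 and those of EHF+CDX1 at 2.97, 5.67 and 4.16, within the range of EV. EHF+CDX1 against EV gave 0.45 ± 0.66 (adjusted p = 0.78). The distal regions, both at the start of TMEM184A, had 7.18 ± 1.58 CPM in EV and 12.6 ± 2.50 in EHF+CDX1 (SD, n = 3), with a log2 fold change of 0.75 ± 0.42 (adjusted p = 0.37).

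**Figure D4:**
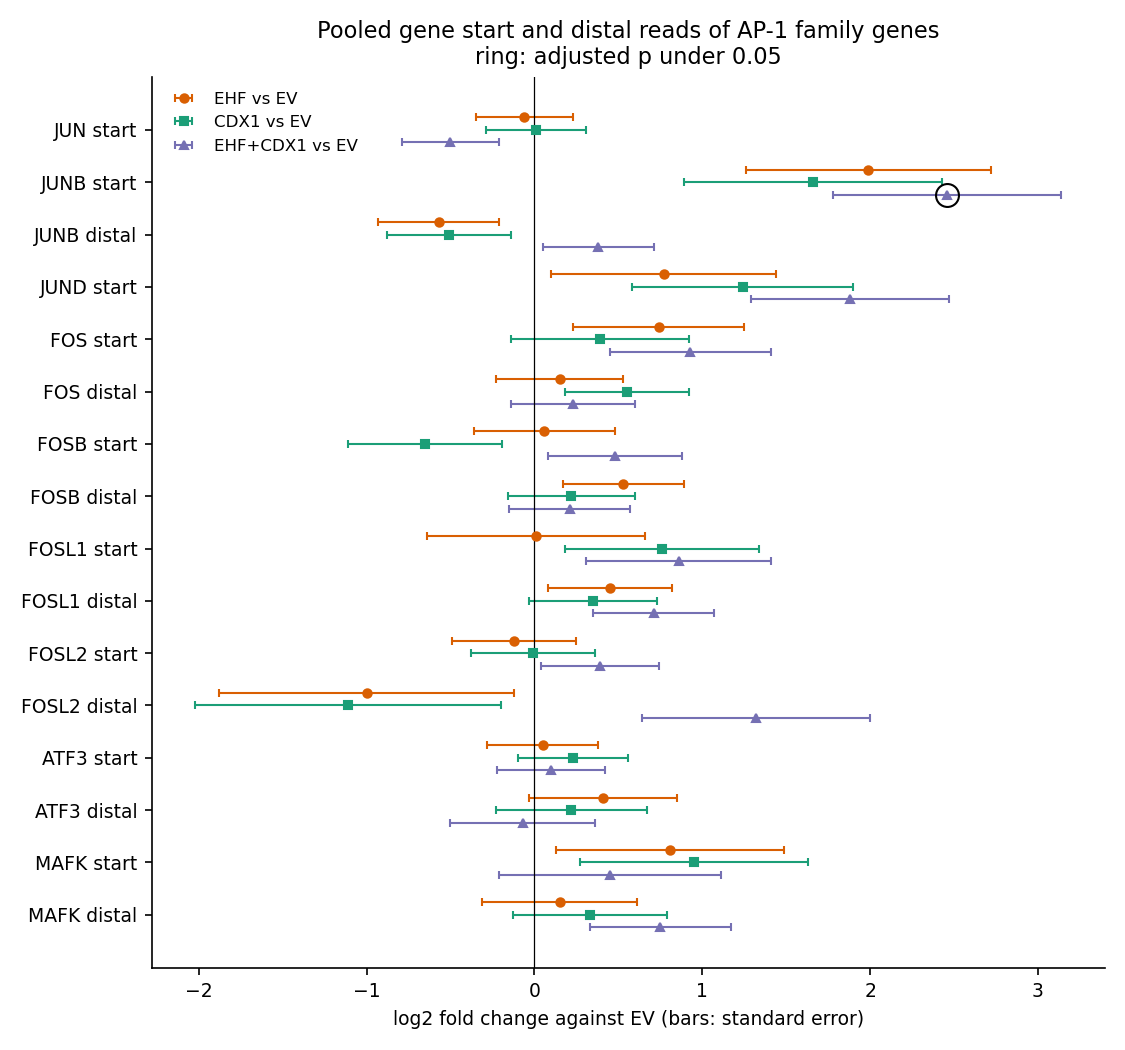
Log2 fold change against EV (x axis; bars, standard error) of the 16 pooled AP-1 family features in EHF (circles), CDX1 (squares) and EHF+CDX1 (triangles). The ring marks the only called value, the JUNB start in EHF+CDX1 at 2.46.

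In the other 5 comparisons, edgeR with line as the only term in the fit called 0 of the 16 member features. The share of all features called was 0.00994% for EHF against EV, 0.0199% for CDX1 against EV, 2.18% for EHF+CDX1 against EHF, 1.71% for EHF+CDX1 against CDX1 and 0.0% for the interaction. At an unadjusted p under 0.05 the members numbered 1, 1, 3, 3 and 2 in that order, beside 4.82%, 2.99%, 15.1%, 15.7% and 8.24% of all features. DESeq2 and limma-voom also called 0 in each of them, with 1, 0, 2, 3 and 2 members under that unadjusted p by DESeq2 and 1, 1, 3, 4 and 2 by limma-voom. Of all features, DESeq2 called 0.0298%, 0.0199%, 0.597%, 0.254% and 0.0%. The shares by limma-voom were 0.0298%, 0.0895%, 1.48%, 1.37% and 0.0%. Under the unadjusted p were 477, 297, 1993, 2199 and 1047 of 20111 features by DESeq2. By limma-voom these were 642, 583, 3302, 3654 and 1704. Over the 34 single regions edgeR, DESeq2, limma-voom and limma on the deposited log2 values likewise called 0 in these comparisons, with 3, 1, 5, 3 and 5 regions under an unadjusted p of 0.05 by edgeR, beside 5.01%, 3.81%, 19.6%, 17.6% and 9.89% of all regions. DESeq2 put 2, 1, 4, 2 and 4 regions under it, limma-voom 2, 2, 5, 3 and 5, and limma on the deposited values 2, 1, 2, 2 and 4 of the 33 regions listed there. Of all 30154 regions, 991, 679, 3896, 3399 and 2053 were under it by DESeq2. By limma-voom these were 1179, 1170, 5892, 5961 and 3426. By limma on the deposited values they were 1506, 2092, 2197, 2500 and 3798 of 27827. In that order the shares of all regions called by edgeR were 0.00995%, 0.0%, 4.35%, 2.62% and 0.123%. They were 0.0298%, 0.00995%, 0.504%, 0.265% and 0.0199% by DESeq2 and 0.0630%, 0.0133%, 3.70%, 3.41% and 0.0763% by limma-voom. By limma on the deposited values they were 0.0288%, 0.0180%, 0.0503%, 0.0898% and 0.0%. At the gene starts the median log2 fold change of members against EV was 0.06 in EHF and 0.39 in CDX1, beside 0.15 and 0.07 over all gene starts.

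Per kilobase of region, the EV gene starts ran from JUN (84.3 CPM per kb), ATF3 (51.4), FOSL2 (45.1), FOSB (29.9), FOSL1 (26.5), MAFK (20.7) and FOS (15.6) to JUND (9.97) and JUNB (9.62). In EHF+CDX1 the order was JUN (60.2), FOSL2 (57.7), JUNB (54.8), ATF3 (53.8), FOSL1 (49.6), FOSB (38.8), JUND (33.1), MAFK (28.5) and FOS (28.4). The mean levels of these genes spanned a narrower range in EHF+CDX1, where JUN to FOSL1 lay close together. The low end in EV rested on 9 counts at JUND and 5 at JUNB over 3 libraries, and the difference in range was not tested. Neighbours in either order were not tested against each other.

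As a share of all gene start counts of the family, JUN took 29.2% ± 8.98 in EV, 24.6% ± 4.72 with EHF, 25.4% ± 5.13 with CDX1 and 15.7% ± 1.23 with both (SD, n = 3). The JUNB share was 1.73% ± 2.24 in EV, 6.81% ± 2.90 with EHF, 5.20% ± 2.38 with CDX1 and 7.89% ± 1.79 with both. JUND took 3.56% ± 1.92, 5.26% ± 2.22, 7.04% ± 4.29 and 9.66% ± 1.15 in the same order. The JUN share was between 14.6% and 17% in the EHF+CDX1 libraries, below all others, which ran from 20.5% upward. These shares rest on 71 to 108 counts in EV libraries and 155 to 500 in EHF+CDX1 libraries, and they depend on each other because they sum to the whole.

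**Figure D5:**
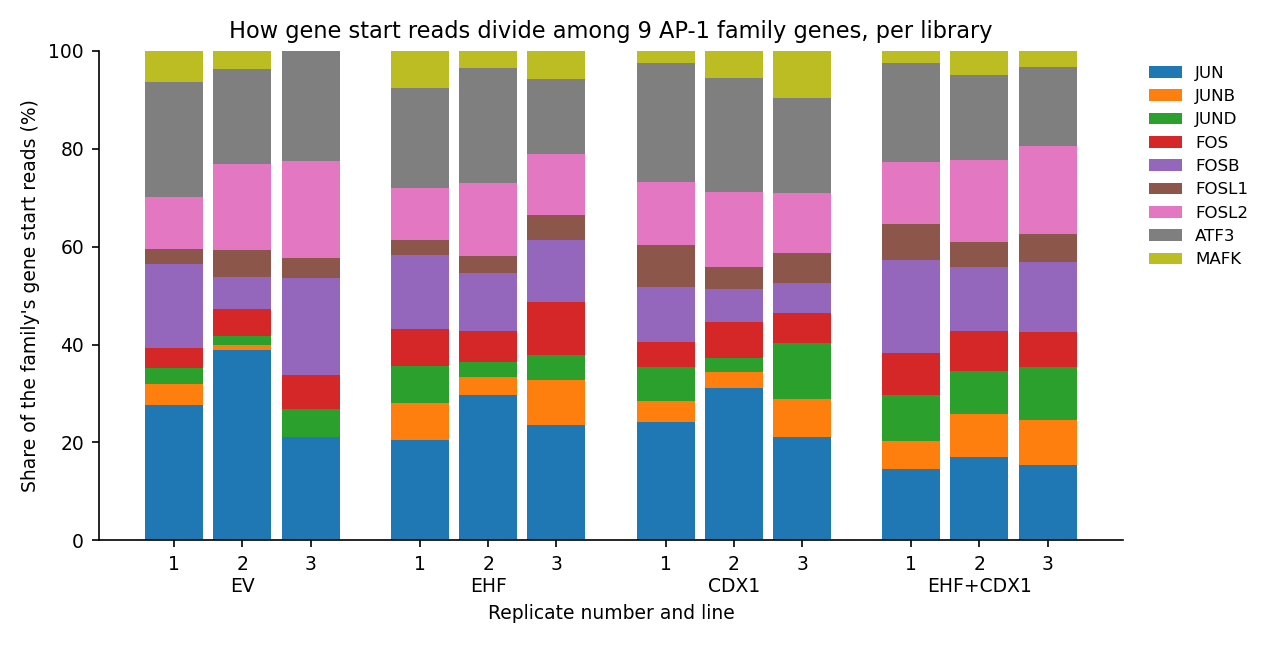
Share (%) of the gene start counts of 9 AP-1 family genes taken by each gene, 1 bar per library, grouped by line. The JUN segment is 14.6% to 17% in EHF+CDX1 libraries, and the JUNB segment is 0.0% in EV replicate 3 and 9.03% in EHF+CDX1 replicate 3.

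Genes that act with AP-1 were taken as 3 lists. Other bZIP partners (ATF and CREB proteins, small MAFs, BACH and NFE2-related factors) were 14 genes, with 10 gene starts and 9 distal features tested. Kinases, phosphatases and factors upstream of AP-1 were 20 genes with 17 and 11 such features, and AP-1 target genes were 20 genes with 9 and 14. In the 6 comparisons edgeR with line as the only term called 0 features of these lists, and DESeq2 and limma-voom also called 0. Of all pooled features, edgeR called 0.0% to 2.18% depending on the comparison, DESeq2 0.0% to 0.612% and limma-voom 0.0% to 1.48%. Unadjusted p-values under 0.05 numbered 9 of 114 tests for the partners, 16 of 168 for the upstream genes and 10 of 138 for the targets by edgeR. DESeq2 gave 9, 11 and 7 in that order, and limma-voom 15, 13 and 12. Over all pooled features, 2.99% to 16.6% were under that p by edgeR, depending on the comparison. By DESeq2 it was 297 to 2382 of 20111 features, and by limma-voom 583 to 3654. In EHF+CDX1 against EV, the median log2 fold change at gene starts was 0.23 for the partners, 0.36 for the upstream genes and 0.45 for the targets, beside 0.18 over all gene starts. At distal features it was 0.33, 0.44 and -0.12 in that order, beside 0.15 over all distal features, with 6 of 14 target features positive.

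Regions that hold TGANTCA, with any middle base, anywhere in the genome were set beside the genes of the family. In EHF+CDX1 against EV, 109 of 5159 such regions were called higher and 58 lower, or 3.24% in all, beside 552 higher and 230 lower (2.59%) of 30154. Their median log2 fold change was 0.08, beside 0.18 over all regions. Against EHF, 4.98% of them were called (4.35% of all) and against CDX1 3.14% (2.62% of all). Of all regions, 1.36% of those at start sites and 3.66% of the others were called in EHF+CDX1 against EV. How the regions with TGANTCA divide between these classes was not examined, and the differences in share were not tested.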

How the data were processed

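ATAC-seq was available for 12 libraries of 4 HCT116 lines, grouped by sample titles, the abbreviated title of the combined line being read as EHF+CDX1 from the series description. The authors aligned reads to hg38 with Subread 2.0.0, kept unique reads, called peaks with HOMER 4.7, merged them and counted reads with featureCounts 2.0.0. The deposited counts are whole numbers per region without normalisation. The deposited log2 values are log2 CPM over 27827 regions, and were used in 1 alternative. Duplicate removal and read shifting are not given in the sources used here, so that intervals cover counting error only.

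Counts were tested in R 4.3.3 with edgeR 4.0.16 (quasi-likelihood F-test, robust, TMM, two-sided), with all 12 libraries in 1 fit and a CPM of at least 3 in 1 library. Regions of every protein-coding gene in GENCODE 44 were pooled as for the members, scaled by region totals, and p-values adjusted over all features. Standard errors were derived from the F statistic, and 95% intervals of fold changes are 1.96 SE either side. The common biological coefficient of variation was 0.253 for pooled features and 0.335 for regions. DESeq2 1.42.0 and limma 3.58.1 served as alternatives. Mitochondrial matches came from blastn 2.17.0 (40 bases, 80% identity). A group whose libraries all held at most 3 counts was set at that floor. The fits were tested on simulated data with 200 features changed 4-fold in EHF+CDX1, up or down. Against EV, 62% of the changed pooled features and 23% of the changed regions were recovered. False calls made up 3.1% and 6.1% of the calls. The simulation kept only features above a minimum total count and drew every feature at the common coefficient of variation. It held no effect of replicate number, so these rates need not hold for sparser or more variable features. All members are named. Of the lists, called genes were to be named, and motifs were counted by exact letters on both strands. The members and lists were chosen with earlier results of these data known. Region coordinates are as deposited, and the 4 printed regions include both end bases.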

Additional observations from a re-analysis of the deposited data

How the results depend on the processing

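The JUNB start in EHF+CDX1 against EV was higher in all 26 alternatives (log2 fold change 1.81 to 4.32) and past the threshold in 15 (adjusted p 0.0046 to 0.89). The count of member features called in that comparison, 1, was 0 with library totals alone, DESeq2 or limma-voom, and ran from 0 to 2 with 1 library left out. It was 0 without CDX1 replicate 1 or 3, libraries outside the comparison that share its dispersion. The count of member regions called, 1, was 0 with library totals alone, DESeq2 or limma-trend on the deposited log2 CPM, and ran from 0 to 1 with 1 library left out. Without replicate 2, or without replicate 3, of every group (chosen after seeing the data) both counts were 0. For EHF+CDX1 against EHF the count of 0 became 1 with starts within 500 bp and without replicate 3 of every group, and 0 to 1 with 1 library left out, as it did against CDX1. The cause was not tested.

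With the replicate number as a block, member features called were 2 in EHF+CDX1 against EV (JUNB start 2.50, JUND start 1.95), beside 6.25% of all features, and 2 against EHF (JUNB distal with an adjusted p of 0.0078, FOSL2 distal 2.32; 5.35% of all). They were 3 against CDX1 (JUNB distal 0.91, FOSB start 1.13, FOSL2 distal 2.44; 5.71% of all) and 1 in the interaction (JUNB distal 1.58; 0.502% of all). Of the partner, upstream and target lists, 2 of 114, 5 of 168 and 2 of 138 tests were called over the 6 comparisons. Over all features the share called with the block was 0.0149% to 6.25%, depending on the comparison. Over all features the block moved the calls from 338 to 1256 against EV. The numbers were not taken to pair the libraries: deviations of same-numbered libraries correlated at 0.00143 to 0.474 and above 0.1 in 15 of 18 pairs, although all 12 libraries correlated best with their own number. The remaining pairs were all those of EHF+CDX1 replicate 3, at 0.00344 with EV, 0.0402 with EHF and 0.00143 with CDX1.

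Library totals alone moved the median of all features against EV to -0.46 (EHF), -0.65 (CDX1) and 0.15 (EHF+CDX1). Against EV, the ATF3 start (0.10) became -0.02 when scaled to counts at coding gene starts (chosen after seeing the data) and -0.06 without replicate 2 of every group. It ran from -0.15 to 0.24 with 1 library left out, the ATF3 distal value from -0.26 to 0.47, the FOSB start from -0.06 to 0.78 and the FOS distal value from -0.06 to 0.54. The ATF3 distal value (-0.07) became 0.01 with DESeq2, 0.07 with library totals and 0.26 without replicate 2 of every group, the MAFK start -0.11 in that last setting. The low counts limit which differences could be seen: at 3 counts a library the level was 0.680 to 4.52 CPM.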
